A study of Mus musculus with 4 samples.

Results

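The insulin-like growth factor (IGF) axis was taken as 10 genes chosen by name, the ligands Igf1 and Igf2, the receptors Igf1r and Igf2r, and the binding proteins Igfbp2 to Igfbp7. They are 10 of 19938 named genes measured on Affymetrix arrays in NIH3T3, a mouse fibroblast line established long ago in culture. Each gene was read as the brightest of its probe sets by the mean over all arrays, and each of the 10 had a single probe set. The family was chosen with the result for Igfbp4 already known, so its values describe these arrays and are not an independent test of it. For 2 Ctcfl samples doxycycline was withheld for 48 h, and for 2 control samples it was kept in the medium at 2 µg/ml. All 4 came from a stable clone, p19, with the integrated vectors pBI-EGFP-FLAG-mCtcfl and pTA-N, in which the drug is used to repress the transgene (Tet-Off). Loss of the drug and gain of Ctcfl therefore always coincided and cannot be told apart, and the findings are those of 1 clone. By its name the vector also carries EGFP, no sample was given EGFP alone, and its part was not tested. The comparison asked how gene expression differs in the presence and absence of Ctcfl, the relative of the insulator factor CTCF that is normally made in testis.

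IGF1 and IGF2 are secreted peptides that act through the receptor tyrosine kinase IGF1R on growth and survival. IGF2R carries IGF2 to lysosomes for degradation and has no kinase of its own. The binding proteins hold the ligands outside the cell, where they can extend their life, keep them from the receptor or release them after proteolysis, and fibroblasts are known to secrete several of them. Igf2 is also a textbook case of CTCF action, because CTCF bound upstream of H19 insulates Igf2 from shared enhancers on the maternal chromosome.

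Of the 10 genes, Igfbp4 fell in the Ctcfl samples, with an adjusted p of 0.0499 by limma, and the other 9 did not pass the test. Igfbp4 was 1.93-fold lower, while 7 of the 10 genes stayed within a difference of 1.2-fold, as did 91.2% of all genes. Igfbp7 and Igfbp6 had the next sizes of difference, Igfbp7 lower and Igfbp6 higher in the Ctcfl samples. The 10 differences were split evenly, 5 lower and 5 higher, with a median log2 change of -0.005, against a median of 0.00 over all genes. Groups did not overlap for 6 of the 10 genes, 3 of them lower and 3 higher on the Ctcfl arrays, and this held for 41.1% of all genes. The test was limma across all genes with Benjamini-Hochberg adjustment at 0.05, which called 9 genes (0.0451%). At an unadjusted p under 0.05 there were 3 of the 10 genes, against 10.7% of all genes.

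**Figure D1:**
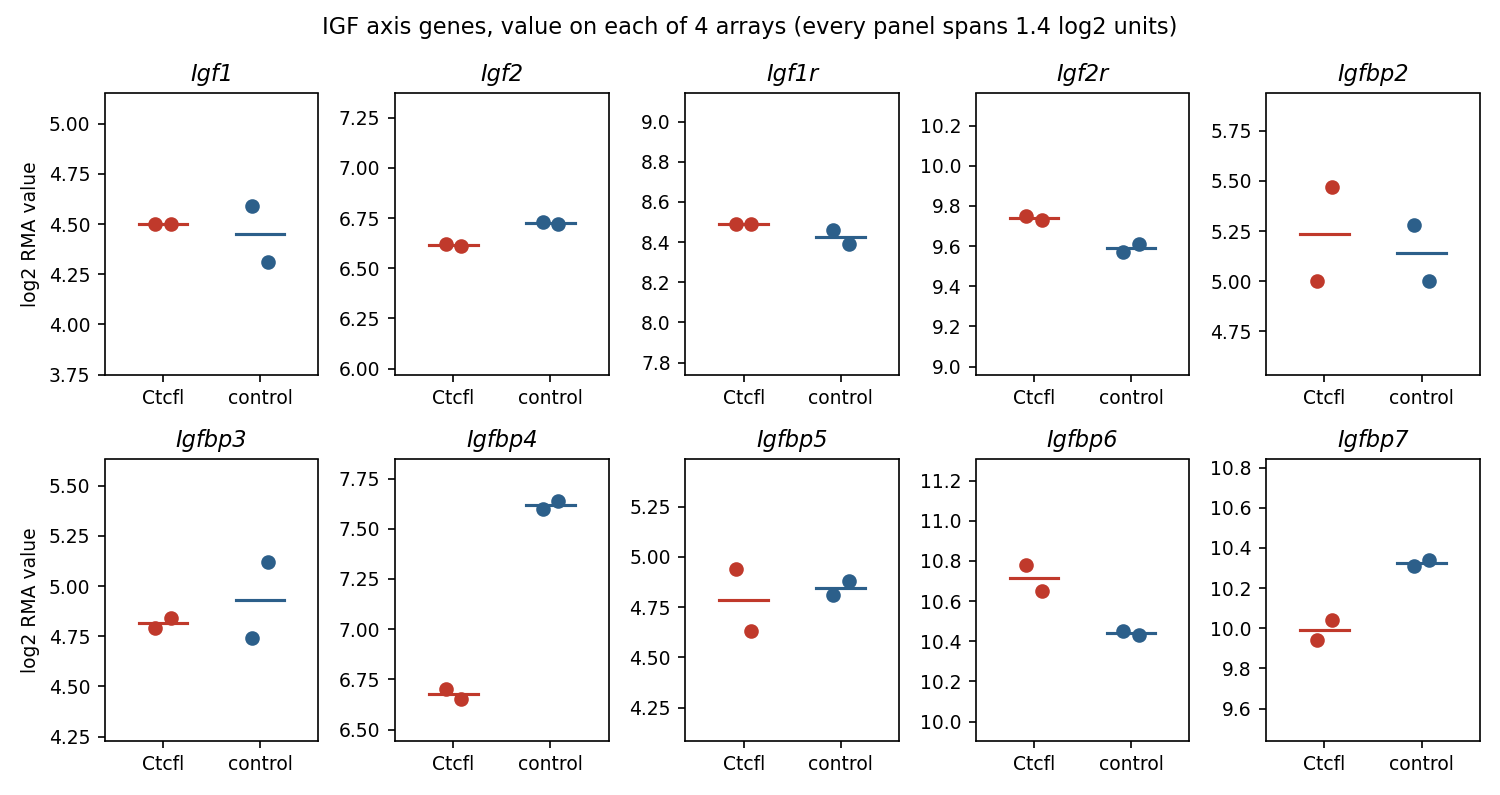
Log2 RMA value of each IGF axis gene (vertical axis) on the 2 Ctcfl arrays (left, red) and the 2 control arrays (right, blue), with points for arrays and lines for group means. Every panel spans 1.4 log2 units, so distances compare between panels; Igfbp4 lies at 6.70 and 6.65 on the Ctcfl arrays and at 7.60 and 7.64 on the control arrays.

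The transgene and the identity of the cells were checked first. Ctcfl had 10.37 and 10.35 on the Ctcfl arrays, against 7.77 and 7.71 on the control arrays (log2 RMA values). The control values too lay above the upper quartile of the probe sets on their arrays (7.43 and 7.40), so the values do not show that Ctcfl was absent there. Of 12 fibroblast markers, 10, among them Col1a1, Vim and Thy1, lay above the upper quartile of the probe sets on every array, while Fap and Postn lay below the median. No marker of fibroblasts, adipocytes, epithelium, immune cells, endothelium or muscle passed the test. The fibroblast list nevertheless averaged 9.03 to 9.06 on the Ctcfl arrays and 9.18 on both control arrays, with 8 of 12 markers lower without overlap, where 20.6% of all genes were. The largest falls were those of Pdgfrb (log2 change -0.56), Col3a1 (-0.38) and Pdgfra (-0.29), with unadjusted p of 7.41e-04, 0.00422 and 0.0183 by limma. Their adjusted p were 0.180, 0.288 and 0.387 by limma, while 3 of the 12 markers were higher, Sparc the most (0.19). The part of these fibroblast marker differences in the results for the IGF axis was not tested. In bulk samples, fewer cells of a type and less RNA per cell cannot be told apart. The 5 endothelial markers all lay below the array median, as did 5 of 7 adipocyte and 5 of 7 epithelial markers, 3 of 6 immune and 2 of 5 muscle markers. Above the array median on all 4 arrays were the macrophage marker Cd68 (6.11 to 6.39), the keratin gene Krt8 (5.66 to 6.46), the muscle actin gene Acta1 (6.57 to 6.71) and the lipid droplet gene Plin1 (5.31 to 5.52). Of these, Krt8 had 6.46 and 6.41 on the Ctcfl arrays, against 6.06 and 5.66 on the control arrays (log2 change 0.575, unadjusted p = 0.00595, limma adjusted p = 0.312), and its part in the results was not tested. The defining markers Pecam1, Adipoq, Epcam and Ptprc lay below the array median on all 4. Nothing in the labels says that replicates came from separate cultures, so every p-value rests on a spread that may be technical.

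Neither ligand passed the test. Igf1, the ligand that growth hormone induces in the body, lies on the plus strand at chr10:87858265-87937047 (GRCm38.p6). It had 4.50 and 4.50 on the Ctcfl arrays, against 4.59 and 4.31 on the control arrays. The control arrays enclosed both Ctcfl arrays, so the groups overlapped, and all 4 values lay below the median of their array (5.2 to 5.24). The log2 change of Igf1 was 0.05 (SE 0.11, 95% interval -0.226 to 0.326, limma adjusted p = 0.900). No detection calls were used, so such low values of Igf1 cannot be separated from background.

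Igf2, the fetal growth factor expressed from the paternal chromosome in most tissues, lies on the minus strand at chr7:142650768-142666816. It had 6.62 and 6.61 on the Ctcfl arrays, against 6.73 and 6.72 on the control arrays. Igf2 was lower on both Ctcfl arrays, with a gap of 0.10 between the closest arrays of the groups and almost no spread within them. Its log2 change was -0.11 (SE 0.08, 95% interval -0.308 to 0.088, adjusted p = 0.662 by limma), where the SE draws on the spread of other genes as well as its own. H19, the neighbour that shares the CTCF-bound control region with Igf2, was not analysed here. Ins2, an insulin gene and the next measured gene outside Igf2, 11.8 kb away, had a log2 change of -0.06. Mrpl23, a mitochondrial ribosomal protein gene 110.0 kb to the other side, had 0.025, and Mir483, which lies within Igf2, had 0.005.

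Both receptor genes were slightly higher on the Ctcfl arrays, and neither passed. Igf1r, the signalling receptor of both ligands, lies on the plus strand at chr7:67952257-68233668. It had 8.49 and 8.49 on the Ctcfl arrays, against 8.46 and 8.39 on the control arrays. The groups of Igf1r did not overlap, but only 0.03 separated the closest arrays, less than the 0.07 between the control arrays. Its log2 change was 0.065 (SE 0.08, 95% interval -0.139 to 0.269, limma adjusted p = 0.814), so a change of Igf1r beyond 0.269 in size lies outside the interval.

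Igf2r, also called the cation-independent mannose 6-phosphate receptor because it sorts tagged enzymes to lysosomes, lies on the minus strand at chr17:12682406-12769706. It had 9.75 and 9.73 on the Ctcfl arrays, against 9.57 and 9.61 on the control arrays. Both Ctcfl arrays were higher, with 0.12 between the closest arrays of the groups. The log2 change of Igf2r was 0.15 (SE 0.08, 95% interval -0.05 to 0.35, limma adjusted p = 0.557). Airn, the imprinted noncoding RNA that runs across the start of Igf2r on the opposite strand and is known to silence its paternal copy, had 6.76 and 6.66 on the Ctcfl arrays, against 6.53 and 6.26 on the control arrays. Airn was thus also higher on both Ctcfl arrays (log2 change 0.315, SE 0.11, limma adjusted p = 0.437) and did not pass. Whether these probe sets tell the strands apart was not given in the sources used here.

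Igfbp4 was the one member past the threshold. Its product binds both ligands, mostly holds back IGF action in cultured cells, and is cleaved by the protease PAPP-A. The gene lies on the plus strand at chr11:99040005-99052655. It had 6.70 and 6.65 on the Ctcfl arrays, against 7.60 and 7.64 on the control arrays, or 6.675 ± 0.035 and 7.620 ± 0.028 (SD, n = 2 each). All Ctcfl values were lower, and the 0.90 between the closest arrays of the groups far exceeded the 0.05 and 0.04 between replicates of Ctcfl and control. The log2 change was -0.945 (SE 0.08, 95% interval -1.148 to -0.742), and the adjusted p of 0.0499 by limma lay at the threshold of 0.05, in last place by p among the 9 genes called. Leaving out any of the 4 arrays, Ctcfl replicate 1 or 2 or control replicate 1 or 2, ended the call and moved the log2 change only between -0.97 and -0.92. A group then holds 1 array, so this loss says little about Igfbp4 itself. Igfbp4 passed in 4 of 13 other settings of the fit, with adjusted p from 9.97e-06 to 0.651 by limma. Of these 4 settings, only median centring changed the values of Igfbp4, which has a single probe set. No gene at all passed over all probe sets, with ordinary t statistics or with the replicate block.

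**Figure D2:**
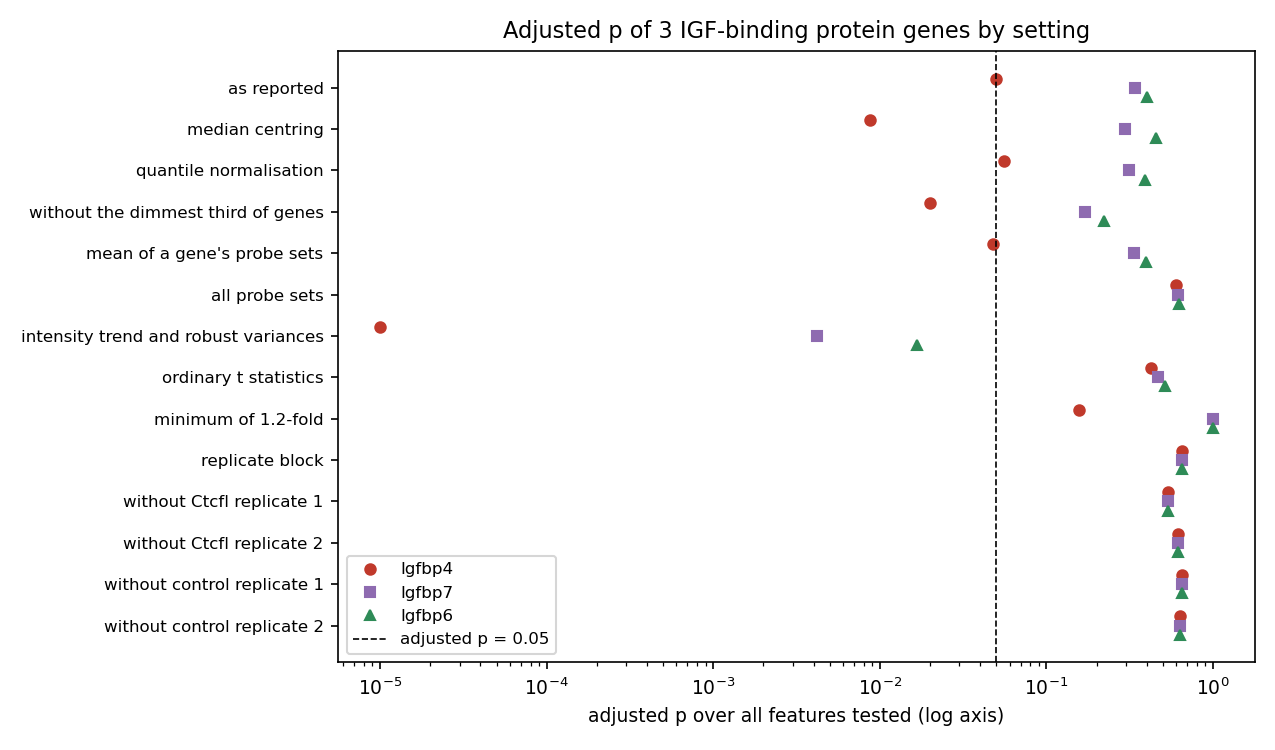
Adjusted p over all features tested (horizontal log axis) of Igfbp4 (circles), Igfbp7 (squares) and Igfbp6 (triangles) under the reported fit and 13 other settings (rows), with the threshold of 0.05 as a dashed line. Igfbp4 runs from 9.97e-06 to 0.651, and Igfbp7 and Igfbp6 lie left of the line in 1 setting, the intensity trend with robust variances.

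Igfbp7 and Igfbp6 had values high in the range of the arrays and differed in opposite directions. Igfbp7 encodes a secreted relative that binds IGFs with low affinity and is found in vascular basement membranes, and it lies on the minus strand at chr5:77349240-77408045. It had 9.94 and 10.04 on the Ctcfl arrays, against 10.31 and 10.34 on the control arrays. Both Ctcfl arrays were lower, and the 0.27 between the closest arrays was larger than the spread within either group. The log2 change of Igfbp7 was -0.335 (SE 0.09, 95% interval -0.546 to -0.124, 1.26-fold lower), with an unadjusted p of 0.00784 and an adjusted p of 0.341 by limma. Igfbp6, whose product prefers IGF2 over IGF1, lies on the plus strand at chr15:102144186-102149512. It had 10.78 and 10.65 on the Ctcfl arrays, against 10.45 and 10.43 on the control arrays. Here both Ctcfl arrays were higher, with 0.20 between the closest arrays and 0.13 between the Ctcfl replicates. The log2 change of Igfbp6 was 0.275 (SE 0.09, 95% interval 0.057 to 0.493, 1.21-fold), with an unadjusted p of 0.0212 and an adjusted p of 0.402 by limma. Among the 13 other settings, Igfbp7 and Igfbp6 passed only with an intensity trend and robust variances, at adjusted p of 0.00421 and 0.0167 by limma, where 2.4% of all genes were called.

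The other binding protein genes had low values that overlapped between the groups. Igfbp2 (plus strand, chr1:72824480-72852474), whose product is abundant in fetal serum, had 5.0 and 5.47 on the Ctcfl arrays, against 5.28 and 5.0 on the control arrays. The lowest value of Igfbp2 occurred in both groups, and its replicates differed by more than its groups (log2 change 0.095, SE 0.17, limma adjusted p = 0.871). Igfbp5 (minus strand, chr1:72858065-72874865), whose product binds extracellular matrix, had 4.94 and 4.63 on the Ctcfl arrays, against 4.81 and 4.88 on the control arrays. The Ctcfl arrays enclosed the control arrays (log2 change -0.06, SE 0.12, limma adjusted p = 0.887). Igfbp3 (minus strand, chr11:7206086-7215498), the main carrier of IGFs in serum, had 4.79 and 4.84 on the Ctcfl arrays, against 4.74 and 5.12 on the control arrays. For Igfbp3 the control arrays enclosed the Ctcfl arrays (log2 change -0.115, SE 0.14, limma adjusted p = 0.797). All 4 values of Igfbp3 and of Igfbp5 lay below the array median, as for Igf1, and those of Igfbp2 lay on both sides of it. The 95% intervals were -0.331 to 0.521 for Igfbp2, -0.355 to 0.235 for Igfbp5 and -0.445 to 0.215 for Igfbp3, wider than that of Igfbp4.

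**Figure D3:**
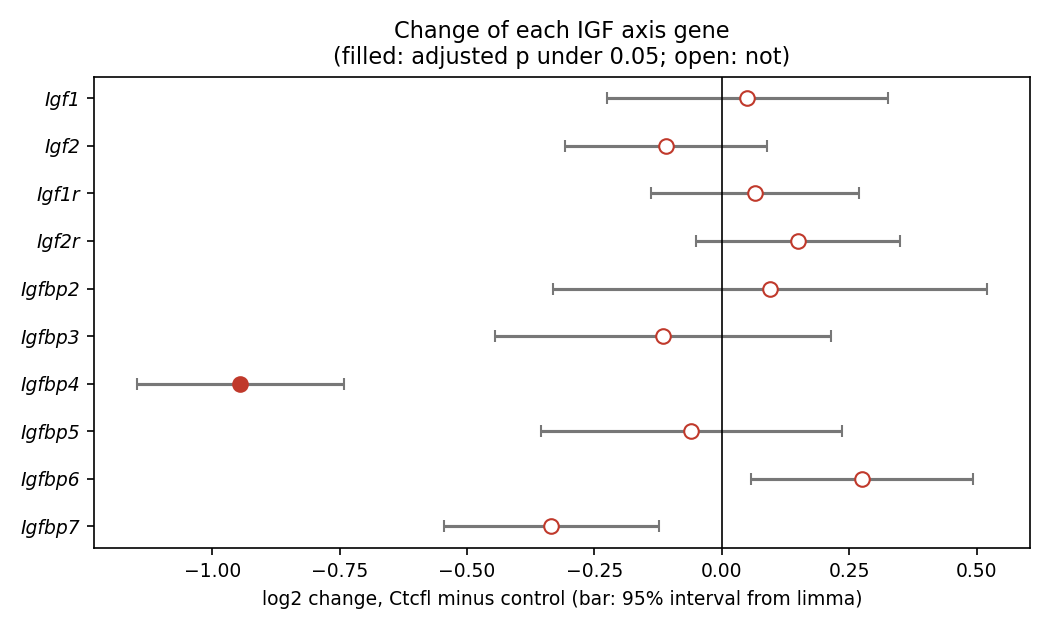
Log2 change between Ctcfl and control arrays (horizontal axis) of each IGF axis gene (rows), with bars for the 95% interval from limma and a filled point where the adjusted p was under 0.05. Igfbp4 at -0.945 is filled, the intervals of Igfbp7 and Igfbp6 leave out 0 on opposite sides, and the other 7 intervals include 0.

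The promoters of the 3 binding protein genes with an unadjusted p under 0.05 are shown because CTCF and CTCFL have nearly the same zinc fingers and bind like sequences. Each sequence is from RefSeq (GRCm38.p6), written 5′ to 3′ on the strand of the gene, from 250 bases before to 50 after a transcript start annotated there. For Igfbp7 and Igfbp6 that start is the 5′ end of the gene as given above, while for Igfbp4 it lies 1239 bases inside it, at position 99041244. Capitals mark CCCTC, in either orientation, and the longer CTCF-type pattern CCNNNAGNNGGC, also on both strands.
Igfbp4 promoter, chr11:99040994-99041293, plus strand: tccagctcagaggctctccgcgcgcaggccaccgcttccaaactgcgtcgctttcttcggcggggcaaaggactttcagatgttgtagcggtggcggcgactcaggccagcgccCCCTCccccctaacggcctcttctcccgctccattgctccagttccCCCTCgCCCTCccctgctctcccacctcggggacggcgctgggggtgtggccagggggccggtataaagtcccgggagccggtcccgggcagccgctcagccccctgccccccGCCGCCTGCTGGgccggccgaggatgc
Igfbp7 promoter, chr5:77407996-77408295, minus strand: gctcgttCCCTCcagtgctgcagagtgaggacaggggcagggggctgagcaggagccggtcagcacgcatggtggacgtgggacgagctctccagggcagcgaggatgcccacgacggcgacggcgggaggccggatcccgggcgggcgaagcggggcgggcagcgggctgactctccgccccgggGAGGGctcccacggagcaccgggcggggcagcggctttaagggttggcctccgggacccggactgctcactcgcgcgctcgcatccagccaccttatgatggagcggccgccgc
Igfbp6 promoter, chr15:102143936-102144235, plus strand: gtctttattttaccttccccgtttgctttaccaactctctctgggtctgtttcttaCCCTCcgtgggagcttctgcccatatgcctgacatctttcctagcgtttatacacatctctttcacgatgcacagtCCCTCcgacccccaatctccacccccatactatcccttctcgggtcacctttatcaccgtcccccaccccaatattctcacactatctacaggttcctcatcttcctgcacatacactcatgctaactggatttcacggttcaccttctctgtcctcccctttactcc

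The Igfbp4 window held 3 copies of CCCTC and 1 match to the longer pattern, GCCGCCTGCTGG on the opposite strand, which begins 23 bases after the start used for this window. It also held a TATAAA 28 bases before that start. The Igfbp7 window held 2 copies of CCCTC and 4 of the GC box GGGCGG (either strand), and the Igfbp6 window 2 copies of CCCTC and a TATAAA on the opposite strand, 148 bases before the start. The longer pattern was in 1 of the 14 windows annotated for the 10 genes and in 8.6% of 32851 windows of all genes, and CCCTC was in 12 of the 14 and in 66.0% of all. TATAAA, on either strand, was in 2 of the 14 and in 13.6% of all, and GGGCGG was in 6 of the 14 and in 35.7% of all. None of these matches overlapped in the 3 windows shown. A match describes these letters and does not show that a factor was bound. Base composition differed, with 71.3% G or C in the Igfbp4 window, 73.3% in Igfbp7 and 49.7% in Igfbp6, around a median of 52.7% over all windows.

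Genes beside the members were read to see whether a difference extended along the chromosome. Igfbp4 sits between Top2a, which encodes the DNA topoisomerase of dividing cells, 15.8 kb to the lower side, and Tns4, a focal adhesion protein gene, 13.0 kb to the higher side. Top2a had 10.77 and 10.97 on the Ctcfl arrays, against 10.97 and 10.87 on the control arrays, so its groups overlapped (log2 change -0.05, SE 0.10, limma adjusted p = 0.889). Tns4 had 5.50 and 5.11 on the Ctcfl arrays, against 5.57 and 5.85 on the control arrays. Tns4 was lower on both Ctcfl arrays by a small gap and did not pass (log2 change -0.405, SE 0.16, limma adjusted p = 0.451). This was the largest difference among the 22 neighbours that are not members. By limma 0 of them passed and 5 had an unadjusted p under 0.05, where 10.7% of all genes did. Not all lie close, since Tns3, 1 of the 5, is 1216.2 kb from Igfbp3, and 1700113H08Rik is 627.7 kb from Igf1.

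Igfbp2 and Igfbp5 lie 5.6 kb apart, and Igfbp3 lies 3.5 kb from Igfbp1, a binding protein gene best known from liver. Igfbp1 had 4.89 and 4.81 on the Ctcfl arrays, against 4.56 and 4.70 on the control arrays, all below the array median (log2 change 0.22, SE 0.09, limma adjusted p = 0.474). Beside Igfbp7, Noa1, a mitochondrial GTPase gene 38.8 kb away, had a log2 change of -0.24 (adjusted p = 0.433), and Polr2b, an RNA polymerase II subunit gene whose end overlaps Igfbp7, had 0.08 (adjusted p = 0.765), both by limma. Near Igfbp6, Spryd3 had 0.06 and Csad, which makes taurine precursors, had 0.00. Igf1os, on the opposite strand at the start of Igf1, had 3.39 and 3.25 on the Ctcfl arrays, against 3.76 and 3.57 on the control arrays, below the lower quartile of each array (4.09 to 4.12).

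**Figure D4:**
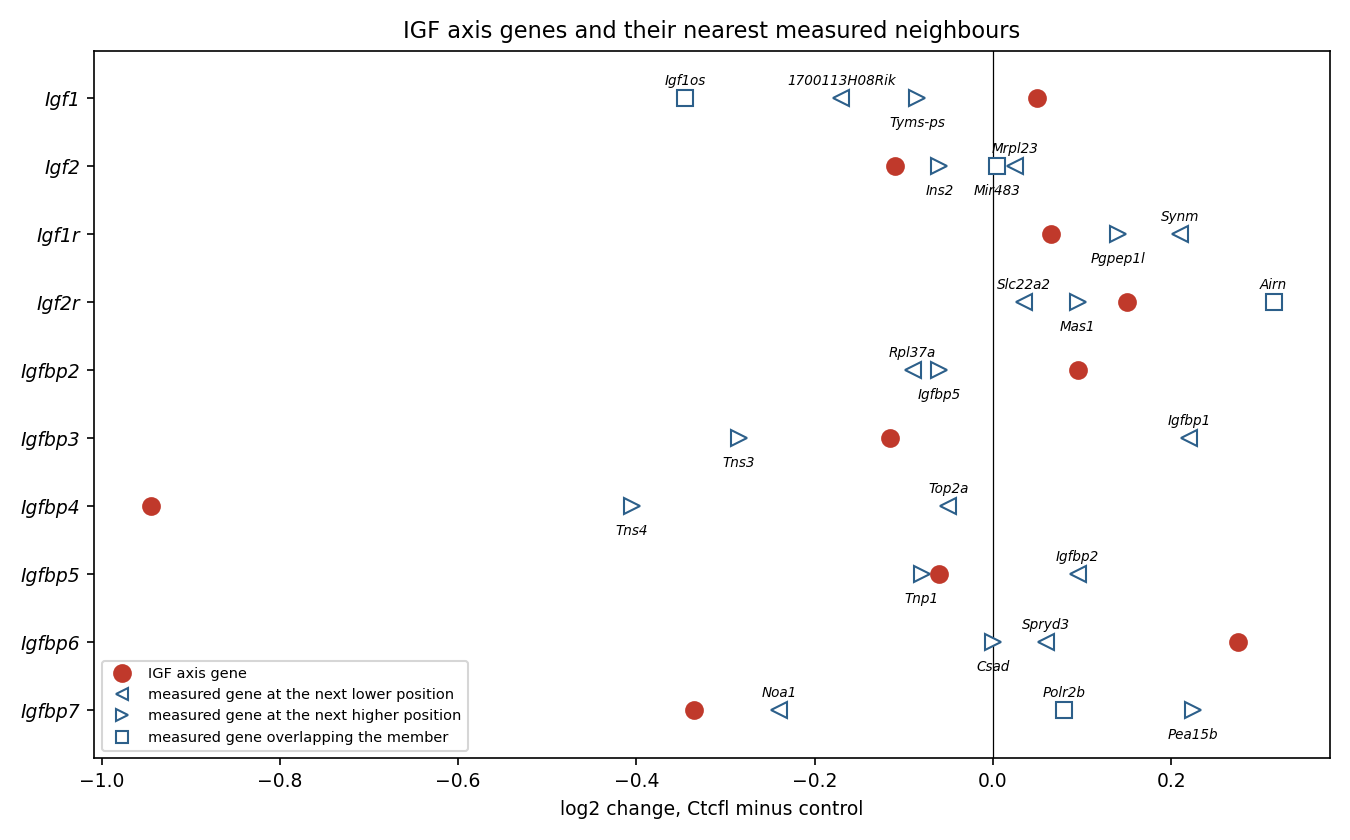
Log2 change between Ctcfl and control arrays (horizontal axis) of each IGF axis gene (red circles, rows) and of the nearest measured genes on either side or overlapping it (open symbols). Igfbp4 at -0.945 lies apart from Tns4 at -0.405 and Top2a at -0.05.

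The rest of the pathway was read on 9 lists with 103 genes, of which 90 were measured under 1 symbol. None passed by limma; 18 of them (20%) had an unadjusted p under 0.05, against 10.7% of all genes, and their median log2 change was 0.005. Among 11 genes for proteases of binding proteins and their inhibitors, 4 were lower and 2 were higher at an unadjusted p under 0.05, against 5.32% and 5.36% of all genes. Stc2, which encodes an inhibitor of the IGFBP4 protease PAPP-A, had 6.16 and 6.39 on the Ctcfl arrays, against 6.72 and 6.75 on the control arrays. It was lower on both Ctcfl arrays (log2 change -0.46, SE 0.10, unadjusted p = 0.00426, limma adjusted p = 0.290). C1s1, a complement protease whose human counterpart can cleave IGFBP5, had 5.58 and 5.57 on the Ctcfl arrays, against 6.02 and 6.01 on the control arrays. Replicates of C1s1 differed by 0.01 in both groups (log2 change -0.44, SE 0.08, unadjusted p = 0.00151, limma adjusted p = 0.223). Adam12, a metalloprotease that cleaves IGFBP3 and IGFBP5, had -0.30, and its relative Adam9 had 0.24. Pappa itself had 4.57 and 4.48 on the Ctcfl arrays, against 4.36 and 4.46 on the control arrays, below the array median on all 4 (log2 change 0.115, limma adjusted p = 0.681).

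Other genes with an IGFBP-type domain or a carrier role had a median log2 change of 0.12 over 9 members, 7 of which were higher and 2 lower. Of these 9 genes, 7 lay below the array median on all arrays, the exceptions being the matricellular genes Ccn1 and Ccn2. Ccn2 had -0.255 (SE 0.10, adjusted p = 0.446) and Ccn1 had 0.035 (adjusted p = 0.919), both by limma. Igfals, the subunit that completes the serum complex, had 0.135.

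Genes that carry the signal inside the cell differed little. Of 31 measured genes of insulin and IGF signal transduction 20 were lower and 11 higher, with a median of -0.055 and a range of -0.17 to 0.28, and none passed. An unadjusted p under 0.05 was found for 3 of the 31, a share near the 10.7% of all genes. They were the docking protein gene Gab1 (0.28, SE 0.09), the growth-restraining complex gene Tsc2 (0.245, SE 0.10) and the PI3-kinase subunit gene Pik3cb (0.235, SE 0.09), with adjusted p of 0.383, 0.454 and 0.442 by limma. Irs1, the substrate that links the receptor to PI3-kinase, had 7.87 and 7.78 on the Ctcfl arrays, against 7.99 and 8.0 on the control arrays. It had the lowest change of the list, -0.17 (SE 0.09, limma adjusted p = 0.529). The kinases Akt1 and Akt2 had -0.055 and 0.015, and the insulin receptor gene Insr had -0.015.

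Targets of the FOXO factors, which the pathway holds in check, had no common direction, with 5 of 16 lower, 11 higher and a median of 0.025. Pdk4, a kinase that turns off pyruvate dehydrogenase, had 5.23 and 5.26 on the Ctcfl arrays, against 6.0 and 5.89 on the control arrays. Its difference had the opposite sign to those of other targets with an unadjusted p under 0.05 (log2 change -0.70, SE 0.09, limma adjusted p = 0.115). The stress sensor gene Sesn3 had 0.38 (SE 0.11), the ubiquitin ligase gene Fbxo32 had 0.305 (SE 0.09) and the cyclin gene Ccng2 had 0.25 (SE 0.10), with adjusted p of 0.354, 0.354 and 0.442 by limma.

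In the growth hormone receptor pathway, which drives Igf1 in liver, 0 of 8 genes passed by limma. At an unadjusted p under 0.05 there was 1 of the 8, a share near the 10.7% of all genes. Jak2, the kinase at that receptor, had 9.05 and 9.24 on the Ctcfl arrays, against 8.41 and 8.58 on the control arrays. It was higher on both Ctcfl arrays (log2 change 0.65, SE 0.11, unadjusted p = 8.79e-04, limma adjusted p = 0.183). Ghr itself had -0.06 and Stat5b had 0.095. Of 6 measured regulators of Igf2, the chromatin protein gene Hmga2 had -0.23 (SE 0.09) and the imprinted factor gene Plagl1 had -0.29 (SE 0.12), with adjusted p of 0.441 and 0.466 by limma. The Igf2 mRNA-binding protein genes Igf2bp1 and Igf2bp3 had -0.08 and 0.00. Beside Igf2r, 7 measured genes of mannose 6-phosphate sorting ranged from -0.055 to 0.075. Of these, 0 had an unadjusted p under 0.05 by limma, against 10.7% of all genes.

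**Figure D5:**
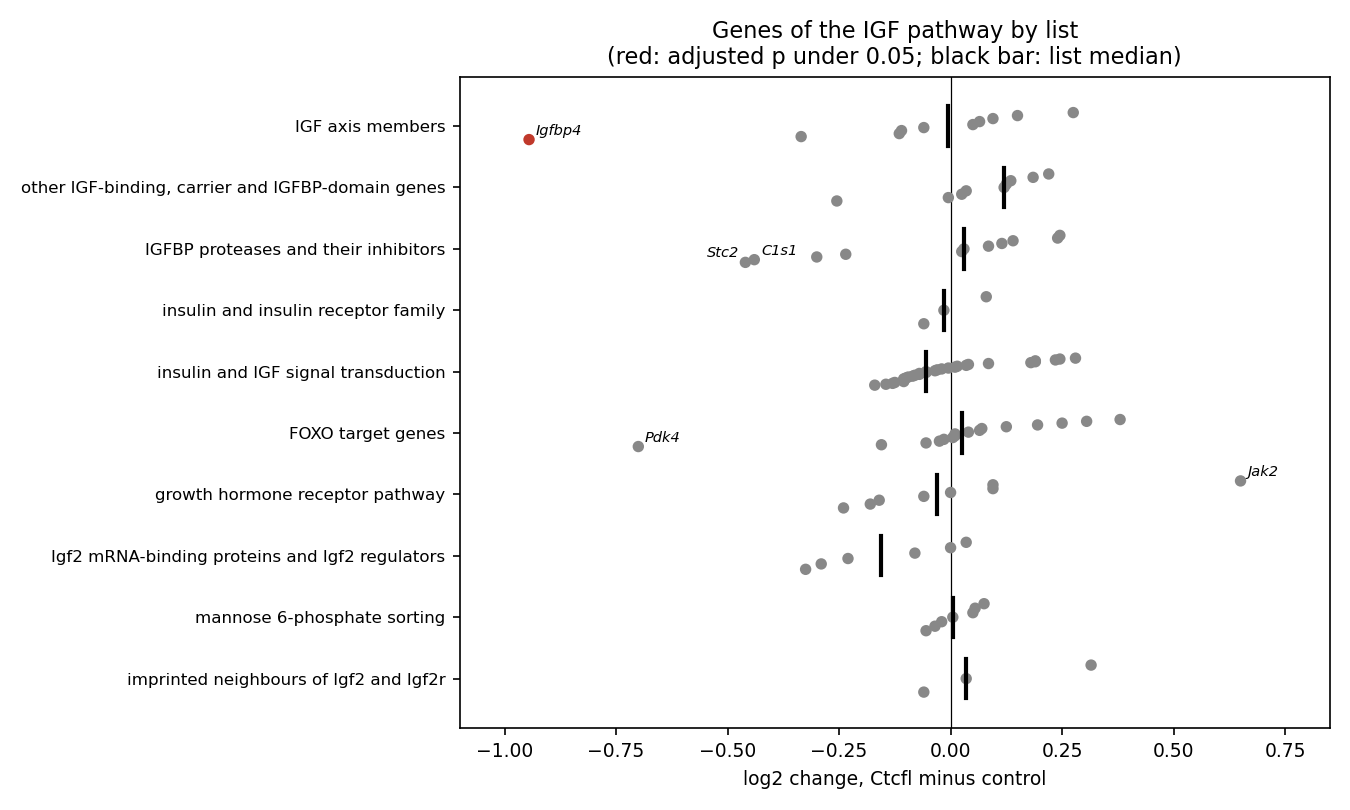
Log2 change between Ctcfl and control arrays (horizontal axis) of every measured gene on the IGF axis and on the 9 pathway lists (rows), with black bars at list medians and red for an adjusted p under 0.05. Igfbp4 is the red point, Pdk4 at -0.70 and Jak2 at 0.65 stand apart in their lists, and list medians lie between -0.155 and 0.12.

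Across all genes, those whose values over the 4 arrays, centred on their mean, lay closest to Igfbp4 were Cytip, Cck and Slc1a3, at Euclidean distances of 0.095, 0.108 and 0.124 log2 units. Cytip, which regulates cell adhesion in leukocytes, had 4.46 and 4.32 on the Ctcfl arrays, against 5.27 and 5.27 on the control arrays. Cck, the precursor of a peptide hormone, had 9.21 and 9.25 on the Ctcfl arrays, against 10.14 and 10.09 on the control arrays. Slc1a3, a glutamate transporter gene, had 8.42 and 8.31 on the Ctcfl arrays, against 9.16 and 9.23 on the control arrays. Each was lower on both Ctcfl arrays by about as much as Igfbp4, and none passed, with adjusted p of 0.0780, 0.0603 and 0.0791 by limma. The likeness rests on 4 arrays in 2 groups, so it is set mostly by the size of that difference.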

How the data were processed

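Messenger RNA was measured on 1 Affymetrix array per sample, 2 Ctcfl and 2 control. The authors deposited log2 expression values, computed by RMA in Expression Console, per the labels; the version is not given in the sources used here. RMA corrects background, quantile-normalises arrays and summarises probes. Values carry 2 decimals, and the number of arrays limits the precision.

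Of 35511 probe sets with values, 21789 had 1 gene symbol in the platform annotation, 1621 had several and 12101 were not listed. The brightest probe set stood for each of 19938 genes. Positions and promoters came from RefSeq (GRCm38.p6).

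Ctcfl was set against control in limma 3.58.1 under R 4.3.3 (moderated two-sided test, Benjamini-Hochberg adjustment over all genes, threshold 0.05), with no filter on dim genes, and the fit was tested on simulated data. Alternatives changed scaling, filter, probe sets, variance model (statmod 1.5.0), minimum size, pairing or arrays used. Members, lists and named genes were chosen with earlier results of these data known. All members are named, with list genes past the threshold or, where none passed, those with the smallest p or a role in the text. Also named are some of the nearest measured neighbours and the 3 genes most like Igfbp4. Genes of the lists without a 1-symbol probe set were not analysed here. Python 3.11.15 with matplotlib 3.10.9 drew the figures.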

Additional observations from a re-analysis of the deposited data

How the results depend on the processing

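Against 9 genes called, limma called 31 after median centring, 20 without the dimmest 33.3% of genes and 479 under an intensity trend with robust variances. With quantile normalisation it called 9 (2235 unadjusted, 11.2% of genes), and with a minimum of 1.2-fold it called 6 (221 unadjusted, 1.11%). It called 0 over all probe sets (2764 unadjusted), 0 with ordinary t statistics (1940 unadjusted, genes without spread left out), 0 with the replicate block (1468 unadjusted) and 0 when any one array was left out (1329 to 1663 unadjusted). Of the 10 IGF axis genes, 1 was called as reported, and 3 with the intensity trend (Igfbp4, Igfbp6 and Igfbp7). The count was 0 with quantile normalisation, over all probe sets, with ordinary t statistics, with a minimum of 1.2-fold, with the replicate block and without any one array; at an unadjusted p under 0.05 it was 1 to 4 in these settings. The log2 change of Igfbp4 kept its sign throughout, from -0.97 to -0.92, but most settings could not alter it. It stayed at -0.945 by construction under another filter, choice of probe sets, variance model, minimum size or pairing, which left its 4 values unchanged. Groups that do not overlap also cannot change sign when 1 array is left out. Signs turned when 1 array was left out for Igf1 (-0.09 to 0.19), Igfbp2 (-0.14 to 0.33), Igfbp3 (-0.305 to 0.075) and Igfbp5 (-0.215 to 0.095), none of which was called. The cause was not tested, except that dropping an array or adding a block leaves fewer residual degrees of freedom. Nothing in the labels ties arrays of the same number, and their deviations correlated at -0.102. With the numbers crossed, a pairing chosen after seeing the data, 0 genes and 0 members were called (2105 genes and 3 members unadjusted). With 2 arrays per group and no detection calls, small differences of dim genes such as Igf1, Igfbp3 and Igfbp5 could not be resolved.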
